A study of Mus musculus with 2 samples.

Results

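The nuclear genes of oxidative phosphorylation were examined in the open chromatin of mouse cardiac progenitor cells (CPCs). Members were the distinct ATAC-Seq peaks whose assigned gene symbol begins with Nduf, Uqcr, Cox4, Cox5, Cox6, Cox7, Cox8 or Atp5, or is Sdha, Sdhb, Sdhc, Sdhd, Cyc1 or Cycs. There were 96 such peaks among 26232 distinct peaks in all, and they were assigned to 76 of 98 protein coding genes that carry such a symbol. ATAC-Seq uses the Tn5 transposase to cut and tag DNA that is not wrapped tightly in chromatin, so a peak marks an accessible stretch of the genome.

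The samples were 2 replicates of 1 group, CPCs at day 5 of differentiation, obtained from E14 embryonic stem cells (labelled strain C57BL/6) with the Tg(Nkx2-5-EmGFP) reporter, in which green fluorescent protein follows the cardiac gene Nkx2-5. The cells had been primed with LIF and BMP4, aggregated with Activin A, VEGF and BMP4, and plated with VEGF, bFGF and FGF10. The extraction protocol names no sorting for the reporter, so the libraries may hold other cells of the culture. Cells with Isl1 knockdown, also named in the series, were not analysed here.

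The data are 1 list of peaks found in both replicates, without a score and without a value for either replicate. Depth and replicate error are therefore unknown, no test over samples could be run, and each peak is given by its presence, its width and its distance from a transcription start site (TSS). Of 8 cardiac progenitor markers, 7 had an assigned peak and 6 had a peak at the TSS, Hand2 having none. Of 4 pluripotency markers, 3 had an assigned peak and 2 (Sox2 and Zfp42) had one at the TSS, Pou5f1 having none. Among all protein coding genes, 62.5% had an assigned peak and 50.1% had one at the TSS. With lists this short, the counts do not separate the marker lists.

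Oxidative phosphorylation takes place in the inner mitochondrial membrane. Complex I oxidises NADH and complex II oxidises succinate, both pass electrons through ubiquinone to complex III, cytochrome c carries them on to complex IV, and the proton gradient built along the way drives ATP synthase (complex V). Most subunits are encoded in the nucleus, a minority in mitochondrial DNA, and the heart depends on this pathway more heavily than almost any other organ. Several complex IV subunits exist as paired genes, with a form used in most tissues and a form used in heart and skeletal muscle, lung or testis.

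Most oxidative phosphorylation genes had an open TSS in CPCs. An assigned peak was present for 76 of 98 genes (77.6%, 95% Wilson confidence interval 68.3 to 84.7%), compared with 62.5% of 21900 protein coding genes. A TSS peak, with its midpoint within 1000 bp of the TSS, was present for 68 of 98 genes (69.4%, 59.7 to 77.6%), compared with 50.1% of all. Because a peak is assigned to 1 gene only, promoters were also examined without regard to the symbol, as windows reaching 500 bp to each side of the most upstream protein coding TSS in GENCODE. By this measure 79 of 95 annotated genes (83.2%, 74.4 to 89.4%) had an open promoter, compared with 53.5% of 22359 promoters. These intervals cover counting error over genes and not the variation between differentiations.

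The shares differed with promoter composition. CpG-rich promoters, defined by GC of 50% or more and by CpG at 0.6 or more of the number that base composition would give, made up 73 of the 95 (76.8%) but 44.6% of all promoters. Among CpG-rich promoters a peak was found at 67 of 73 oxidative phosphorylation genes (91.8%, 83.2 to 96.2%) and at 89.4% of all, which lies inside that interval. Among CpG-poor promoters it was found at 12 of 22 (54.5%, 34.7 to 73.1%), compared with 24.7% of all, below the interval. Several of the 12 lay just under a limit, such as Ndufaf1 (GC 49.95%) and Uqcr11 (CpG 0.576), while Cox7a1 (0.258) and Atp5j2 (0.219) lay far under it. The Atp5j2 window was centred on a start 147 bp outside its peak, and the peak itself had a CpG value of 0.529. At Ndufa5, also among the 12, the start lay 47 bp outside the peak, whose CpG value was 0.750. The class of these genes therefore depends on the start site chosen. Member and other promoters were not matched for CpG content within this class.

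Other housekeeping lists gave similar shares. An assigned peak was present for 58 of 78 mitochondrial ribosomal protein genes (74.4%, 63.7 to 82.7%), 71 of 91 cytosolic ribosomal protein genes (78.0%, 68.5 to 85.3%) and 17 of 18 glycolysis genes (94.4%, with a lower limit of 74.2%). The promoter was open at 71 of 78, 66 of 86 and 15 of 18 genes of these lists, respectively. All of these intervals overlap that of the oxidative phosphorylation genes.

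**Figure D1:**
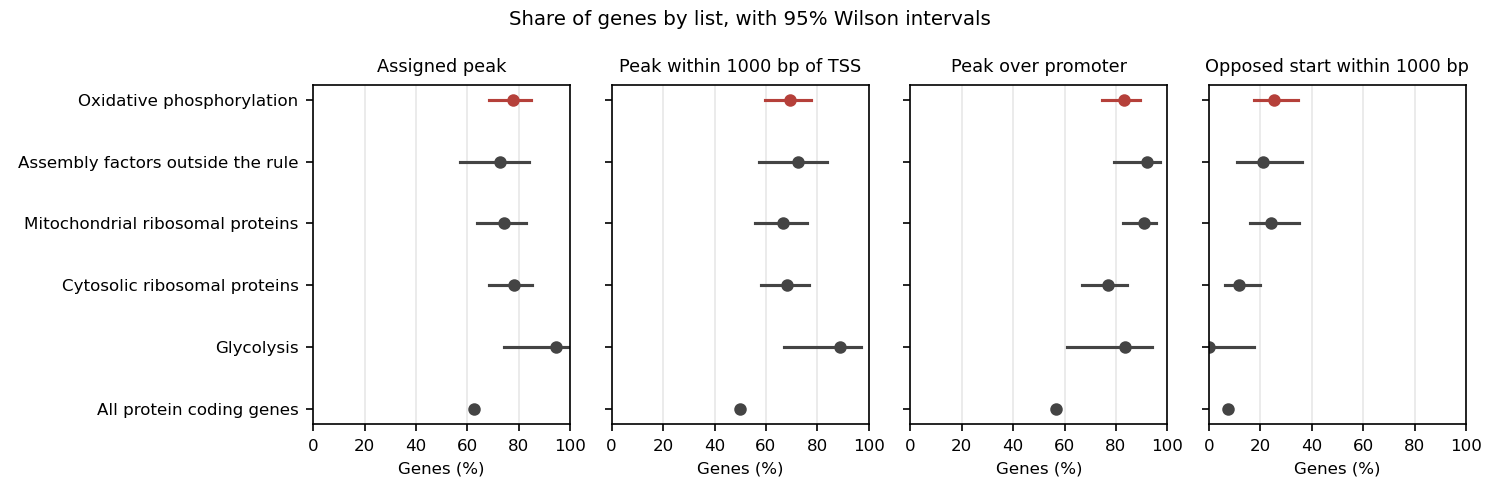
Share of genes (%) with an assigned peak, a peak within 1000 bp of the TSS, a peak over the promoter, and an opposite-strand start site within 1000 bp before the TSS. Points are shares and lines are 95% Wilson intervals. In the last 2 panels only genes found in GENCODE count, which for all protein coding genes gave 56.8% and 7.60% of 20321 genes. The oxidative phosphorylation genes (red) lie to the right of all protein coding genes in each panel and overlap the mitochondrial ribosomal protein genes.

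A large group of these genes shares its promoter with a neighbour, and there the peak often carries the neighbour's name. In 24 of 95 genes (25.3%, 17.6 to 34.8%) the TSS of another gene lay within 1000 bp upstream on the opposite strand. The share was 7.34% among all promoters and 13.7% among all CpG-rich ones, compared with 22 of 73 (30.1%, 20.8 to 41.4%) for the CpG-rich oxidative phosphorylation promoters. Mitochondrial ribosomal protein genes had a similar share (19 of 78, 24.4%), cytosolic ribosomal protein genes a lower one (10 of 86, 11.6%), and none of 18 glycolysis genes was of this kind.

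A peak covered 23 of the 24 shared promoters, the exception being Ndufa1 on chromosome X. In 15 the peak was assigned to the oxidative phosphorylation gene, and in 8 to the neighbour. The 8 were Ndufa11 (peak assigned to Vmac), Ndufb3 (Fam126b), Ndufb9 (Tatdn1), Sdhd (Timm8b), Uqcr10 (Zmat5), Uqcrh (Lrrc41), Cox4i1 (Emc8) and Atp5h (Kctd2). In 3 further genes the promoter peak also carried another symbol. The Kbtbd4 start lay 87 bp inside Ndufs3, the Gabpa start lay 501 bp inside Atp5j, and the peak over Ndufs5 was assigned to BC002163, a pseudogene copy of it. Gabpa encodes the DNA-binding subunit of nuclear respiratory factor 2, a known activator of oxidative phosphorylation genes, and 1 peak of 2082 bp covered both its start and that of Atp5j. These 11 genes account for the difference between the 68 genes with a TSS peak of their own and the 79 open promoters.

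The DNA between the opposed start sites of 7 of these promoters is shown because 1 peak covered both starts and carried the name of the neighbour. Uqcr10, with an opposed start 336 bp away, also fits this description and is not shown. The Ndufa11 stretch ends at the GENCODE start of Vmac, whereas the Vmac start used for the assignment lay at −841 bp from Ndufa11. Sequences are from mm9 (NCBIM37), 5′ to 3′ on the strand of the oxidative phosphorylation gene, so that its TSS is the base after the last letter. Capitals mark letters that match a searched motif of NRF1, ETS or SP factors (given with the motif counts), and sequences without capitals hold none of them. The positions are chr9:50411955-50412005 (Sdhd, minus strand), chr1:58643168-58643227 (Ndufb3, plus), chr17:56857123-56857184 (Ndufa11, plus), chr15:58765286-58765364 (Ndufb9, plus), chr11:115281277-115281439 (Atp5h, minus), chr8:123192013-123192189 (Cox4i1, plus) and chr4:115747677-115747873 (Uqcrh, minus).
Sdhd and Timm8b: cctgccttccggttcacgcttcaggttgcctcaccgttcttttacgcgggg
Ndufb3 and Fam126b: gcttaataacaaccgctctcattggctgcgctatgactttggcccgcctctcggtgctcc
Ndufa11 and Vmac: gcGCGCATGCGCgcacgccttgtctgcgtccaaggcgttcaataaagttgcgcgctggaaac
Ndufb9 and Tatdn1: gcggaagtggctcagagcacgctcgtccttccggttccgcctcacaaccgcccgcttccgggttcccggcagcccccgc
Atp5h and Kctd2: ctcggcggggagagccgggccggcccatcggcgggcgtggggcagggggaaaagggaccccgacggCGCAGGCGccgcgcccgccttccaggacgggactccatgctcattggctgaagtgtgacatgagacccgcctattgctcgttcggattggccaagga
Cox4i1 and Emc8: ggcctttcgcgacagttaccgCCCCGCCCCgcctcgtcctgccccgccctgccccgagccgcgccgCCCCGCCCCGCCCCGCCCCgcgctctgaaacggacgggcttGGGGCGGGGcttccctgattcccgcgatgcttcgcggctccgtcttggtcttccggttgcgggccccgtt
Uqcrh and Lrrc41: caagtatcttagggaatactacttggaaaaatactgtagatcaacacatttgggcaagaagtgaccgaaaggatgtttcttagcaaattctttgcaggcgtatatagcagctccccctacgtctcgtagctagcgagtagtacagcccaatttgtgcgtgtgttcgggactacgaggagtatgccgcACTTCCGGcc

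These stretches ranged from 51 bases between Sdhd and Timm8b to 197 bases between Uqcrh and Lrrc41. That of Cox4i1 held 3 separate blocks of the SP letters and that of Ndufa11 held the full NRF1 palindrome at its Vmac end, whereas those of Sdhd, Ndufb3 and Ndufb9 held no match.

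Complex I, the NADH dehydrogenase, has the largest number of genes. An assigned peak was present for 30 of 41 genes and a TSS peak for 26 (63.4%, 48.1 to 76.4%), and the promoter was open in 31 of 38 (81.6%, 66.6 to 90.8%). The 3 genes not found in GENCODE were Ndufb1, Ndufb4b and Ndufb4c, and none of them had an assigned peak. Width of the TSS peak ranged from 610 bp at Ndufc2 to 2660 bp at Ndufa13, with a median of 1232.5 bp. The Ndufc2 peak began at the TSS and ran 609 bp into the gene. The Ndufa13 peak reached 1253 bp before and 1406 bp after the TSS, and the start of Tssk6 lay inside it.

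The catalytic core of complex I was mostly open. Peaks covered the TSS of the flavin and iron-sulphur subunits Ndufv1 (1259 bp wide), Ndufv2 (1236 bp) and Ndufs1 (1578 bp), and Ndufs3 through the Kbtbd4 peak (1100 bp). The core subunits Ndufs7 and Ndufs8 had no peak over the promoter, and the nearest peaks were 10593 and 4763 bp away, at Gamt and Tcirg1.

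Of the accessory subunits, Ndufa1, Ndufa6 and Ndufa9 had no assigned peak and no peak over their CpG-rich promoters. The nearest peaks were 80166, 7327 and 71881 bp away. Ndufb5 had 1 assigned peak, 8689 bp downstream of the TSS and 997 bp from another annotated start of the same gene, and Ndufa4l2, a paralogue induced by low oxygen, had 1 peak of 2022 bp at −5870 bp (upstream). Its counterpart Ndufa4, grouped here by its symbol although its protein is now counted with complex IV, had a TSS peak of 1040 bp. Ndufab1, which encodes the mitochondrial acyl carrier protein, had a TSS peak of 1101 bp. The midpoint lay farthest from the TSS at Ndufb10, 823 bp downstream, where the peak of 2528 bp extended 2086 bp into the gene.

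All 8 complex I assembly factor genes, Ndufaf1 to Ndufaf8, had a TSS peak and an open promoter. Widths ranged from 887 bp at Ndufaf1 to 2782 bp at Ndufaf3, the widest TSS peak of all members. In 4 of the 8 the TSS was paired with an opposed start, at Ndufaf2 (Ercc8, 113 bp apart), Ndufaf5 (Esf1, 82 bp), Ndufaf7 (Cebpz, 65 bp) and Ndufaf8 (197 bp).

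Complex II, succinate dehydrogenase, has 4 subunits, all encoded in the nucleus, and all 4 promoters were open. Sdha, the flavoprotein that oxidises succinate, had a peak of 1099 bp centred at −9 bp, a negative sign meaning upstream. Sdhb, the iron-sulphur subunit, had a peak of 1196 bp at 163 bp downstream, and Sdhc, a membrane anchor, had a peak of 996 bp at 136 bp downstream. The other anchor, Sdhd, was covered by the Timm8b peak of 1285 bp. No distal peak was assigned to the complex. An opposed start lay within 1000 bp at 3 of its 4 promoters, among them Sdha (Ccdc127) and Sdhd (Timm8b).

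Complex III, which passes electrons from ubiquinol to cytochrome c, was open at all 9 promoters (interval 70.1 to 100%). Peaks of their own were assigned to 7 genes, and Uqcr10 and Uqcrh lay under the peaks of Zmat5 (1249 bp) and Lrrc41 (2668 bp). The narrowest TSS peak was at Uqcrb (787 bp) and the widest at Cyc1 (2428 bp), which encodes cytochrome c1. The Rieske iron-sulphur protein gene Uqcrfs1 had a peak of 907 bp. The core genes Uqcrc1 and Uqcrc2 had peaks of 1238 and 1227 bp. Midpoints lay downstream of the TSS in 6 of the 7 genes, at a median of 155 bp.

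Cycs, which encodes the soluble electron carrier cytochrome c, had no peak at its CpG-rich promoter. The 1 peak assigned to it was 920 bp wide and lay 29725 bp downstream in intergenic sequence. With 1 gene this gives no share worth an interval, but Cycs was the only step of the chain with no open promoter in the list.

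Complex IV, cytochrome c oxidase, had the lowest share of open promoters among the multi-gene complexes, 12 of 18 (66.7%, 43.7 to 83.7%), although this interval overlaps that of every other complex. The genes without one were mainly isoforms of restricted tissues. Among the paired genes, the widely used forms Cox4i1 (through the Emc8 peak of 1416 bp), Cox6a1 (1237 bp), Cox6b1 (988 bp), Cox7a2 (1084 bp) and Cox8a (1314 bp) were all open. The heart and skeletal muscle forms differed from each other. Cox7a1 had a TSS peak of 1069 bp centred at −6 bp, whereas Cox6a2 and Cox8b had no assigned peak, and the nearest peaks were 25197 and 2547 bp away.

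The lung form Cox4i2 had 1 peak, 31897 bp downstream in an intron of Bcl2l1, and none at its promoter. The testis forms also differed, since Cox7b2 had no assigned peak and Cox8c had 1 of 547 bp at −6233 bp, while Cox6b2 had a TSS peak of 2224 bp, the widest of the complex. Cox7b, on chromosome X, was the only widely used subunit gene of complex IV without an open promoter, and the nearest peak was 3458 bp away at Magt1. The narrowest peak was at Cox6c (763 bp). Cox5a and Cox5b, nuclear-encoded accessory subunits, had peaks of 1100 and 1116 bp. Of the 3 member genes on chromosome X, only Ndufb11 had an open promoter.

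ATP synthase was open at 15 of 17 promoters (88.2%, 65.7 to 96.7%), and 13 genes had a TSS peak of their own. Atp5s and Atp5sl are among them by symbol but encode no subunit of the enzyme. The catalytic head was covered in full, with peaks at Atp5a1 (1114 bp), Atp5b (1090 bp), Atp5c1 (1217 bp), Atp5d (2371 bp) and Atp5e (1227 bp). Width was lowest at Atp5j2 (971 bp) and highest at Atp5d. Of the 3 genes that encode the identical membrane ring subunit c, Atp5g1 (1527 bp) and Atp5g3 (1241 bp) had TSS peaks, while Atp5g2 had no assigned peak and the nearest was 2191 bp away at Mir688. In the peripheral stalk, Atp5o had a TSS peak of 1010 bp, Atp5h and Atp5j lay under neighbours' peaks, and Atp5f1 had none within 40933 bp. Peak midpoints lay upstream of the TSS in 8 of 13 genes, at a median of −12 bp. Of 2 subunit genes whose present names fit the rule but whose older names do not, Atp5mpl had a peak of 1113 bp at 175 bp downstream, and the peak next to Atp5md was assigned to Pdcd11 (1264 bp).

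**Figure D2:**
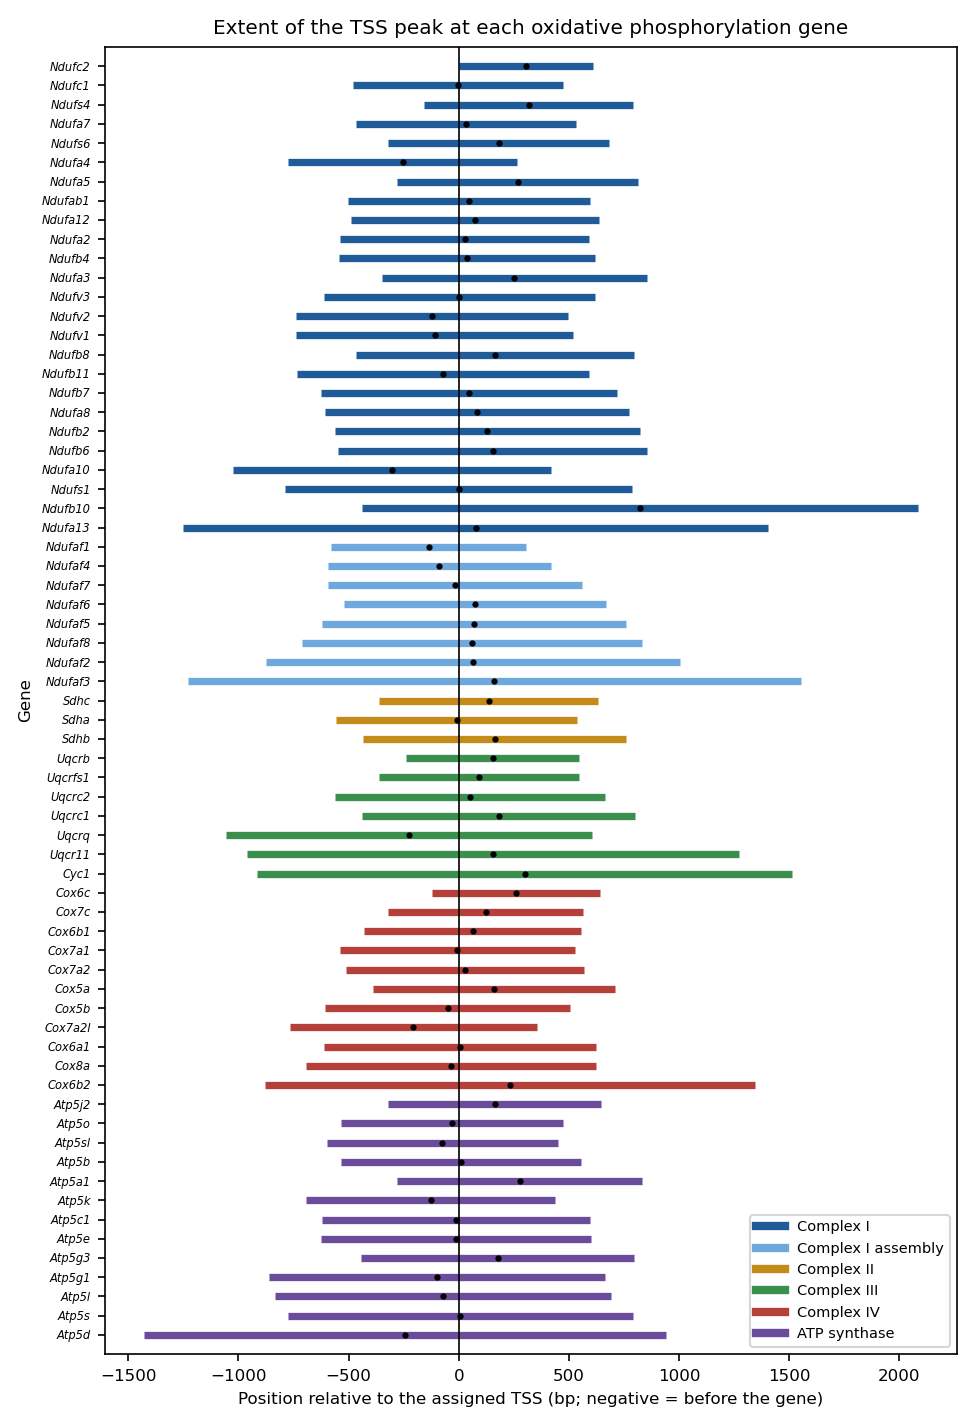
Extent of the TSS peak at 67 of the 68 genes that have one, in bp relative to the TSS from which the deposited distance was measured (0, vertical line). Bars run from the first to the last base of the peak, dots mark midpoints, and colours mark complexes. All 67 bars contain the TSS, and the longest reach is 2086 bp after the TSS of Ndufb10.

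The TSS peaks of these genes were narrower at the median than those of all genes, with midpoints at a similar distance from the TSS. The median TSS peak was 1200 bp wide (quartiles 1064 and 1382.5 bp) over 68 genes, compared with 1331 bp (1080 and 1688.25 bp) over 10964 genes with a TSS peak. Of the 68, 48 were narrower than the median of all genes, 18 were below its lower quartile and 8 were above its upper quartile. The count of 18 is near the share that lies below a quartile by definition. The lower quartiles were close (1064 and 1080 bp), and the upper quartiles lay farther apart (1382.5 and 1688.25 bp). The promoter peaks of CpG-rich genes had medians of 1229 and 1428 bp, so the difference was present within that class too. Medians for the lists were 1107 bp for mitochondrial ribosomal proteins, 1173 bp for cytosolic ribosomal proteins and 1483.5 bp for glycolysis.

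The peaks reached a median of 570 bp before and 628 bp after the TSS, compared with 594 and 717 bp for all genes. The midpoint lay at a median of 46 bp downstream (quartiles −32 and 157.5 bp), compared with 62 bp (−48 and 181 bp) for all genes. It was downstream in 43 genes and upstream in 25, compared with 7113 and 3825 of 10964 for all genes. Another protein coding start lay inside 16 of the 68 peaks (23.5%, 15.0 to 34.9%), compared with 10.0% for all genes. Those 16 had a median width of 1276.5 bp and the other 52 had 1178 bp. Both medians were below those of all genes of the same kind, 1481 and 1316 bp. Of the 7 TSS peaks over 2000 bp, 1 contained another start, and the others contained none. The interval of a peak comes from 1 replicate, and the part that depth has in its width was not tested.

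**Figure D3:**
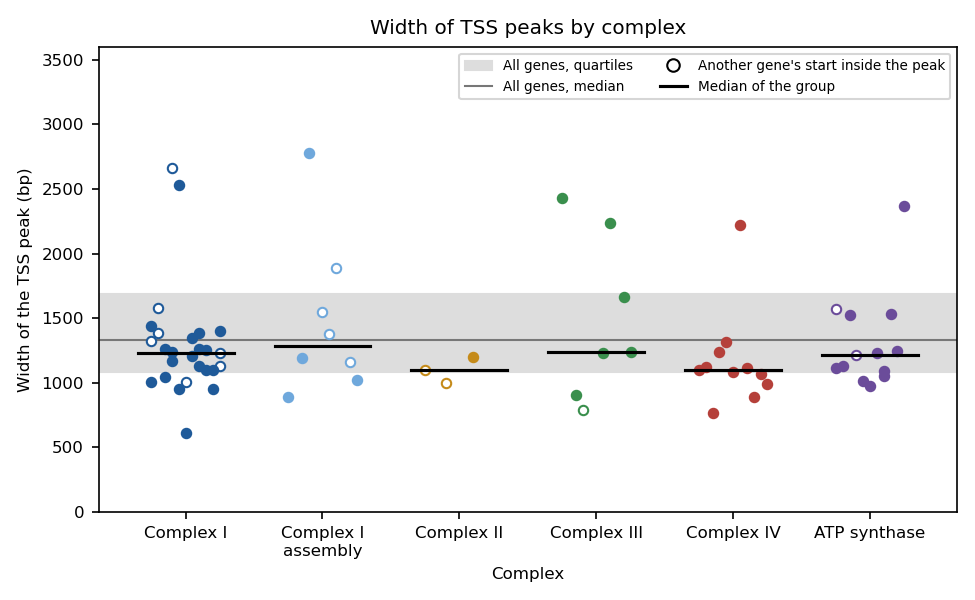
Width in bp of each TSS peak by complex (circles), with the group median (black line) and the median and quartiles of all 10964 genes with a TSS peak (grey line and band). Open circles mark peaks that contain the start of another protein coding gene. Medians run from 1099 bp in complex II to 1285.5 bp in the complex I assembly factors, all under 1331 bp, and 7 peaks exceed 2000 bp.

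Distal peaks were a smaller share for oxidative phosphorylation genes than for all genes. Of the 96 peaks, 28 (29.2%, 21.0 to 38.9%) lay beyond 1000 bp of the TSS, compared with 51.8% of 23411 peaks assigned to protein coding genes. The share was 39.2% for cytosolic and 41.8% (32.2 to 52.0%) for mitochondrial ribosomal protein genes. It was 44.8% for glycolysis genes and 27.5% for 40 assembly factors named outside the rule. All of these intervals overlap that of the members. The genes with a peak had 1.26 peaks each, compared with 1.71 for all, and 65 of 76 (85.5%, 75.9 to 91.7%) had only 1, compared with 61.0%. The share with only 1 was 78.9% for cytosolic and 67.2% for mitochondrial ribosomal protein genes, whose intervals also overlap that of the members. The 8 cardiac progenitor markers, in contrast, had 30 peaks, of which 24 were distal. Distal member peaks had a median width of 866.5 bp, compared with 911 bp for all 14460 distal intervals. Of the member peaks, 19 were intergenic and 7 lay in introns, shares that were not counted for all distal intervals. In 8 genes every assigned peak was distal, namely Ndufa4l2, Ndufb3, Ndufb5, Ndufb9, Cycs, Cox4i2, Cox8c and Atp5h.

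The genes with 4 or more peaks were Uqcrb, Ndufs6, Cox6a1 and Atp5o. Uqcrb had 5 peaks on chromosome 13, with distal ones at 36989, 97440, 189477 and 207034 bp downstream of the TSS. In GENCODE other annotated coding starts lay nearer to all 4 of these, at 5692 bp (Gm5451), 43602 bp (Gm17404), and 28919 and 11362 bp (Vmn2r-ps106). Ndufs6 had 3 distal peaks of 590, 893 and 1253 bp, 29591, 23704 and 17802 bp downstream of its TSS. They lay between Ndufs6 and Irx4, a transcription factor gene of the ventricular heart muscle, whose start was 38394, 44282 and 50184 bp away. The list assigns a peak to 1 TSS by distance, and no value in it ties these peaks to either gene.

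Cox6a1 had distal peaks at 1238 bp downstream and at −10229 and −25097 bp. The distal peaks of Atp5o, at 13568, 47255 and 84975 bp downstream, lay inside the annotated spans of both Atp5o and Itsn1. Another Atp5o start was 8919 bp from the first, and alternative Itsn1 starts were 3071 and 4028 bp from the more distant 2, respectively. A further 7 genes had 2 peaks each, namely Ndufa8, Ndufb4, Ndufs4, Ndufaf4, Ndufaf6, Cox7a2l and Cox7c. The most distant member peak, assigned to Cox7c, was at −332138 bp in intergenic sequence. The distal peak of Ndufs4, 90029 bp downstream, lay in an intron of Ndufs4 itself, and the widest distal peak was that of Atp5h (2381 bp, 6827 bp downstream).

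**Figure D4:**
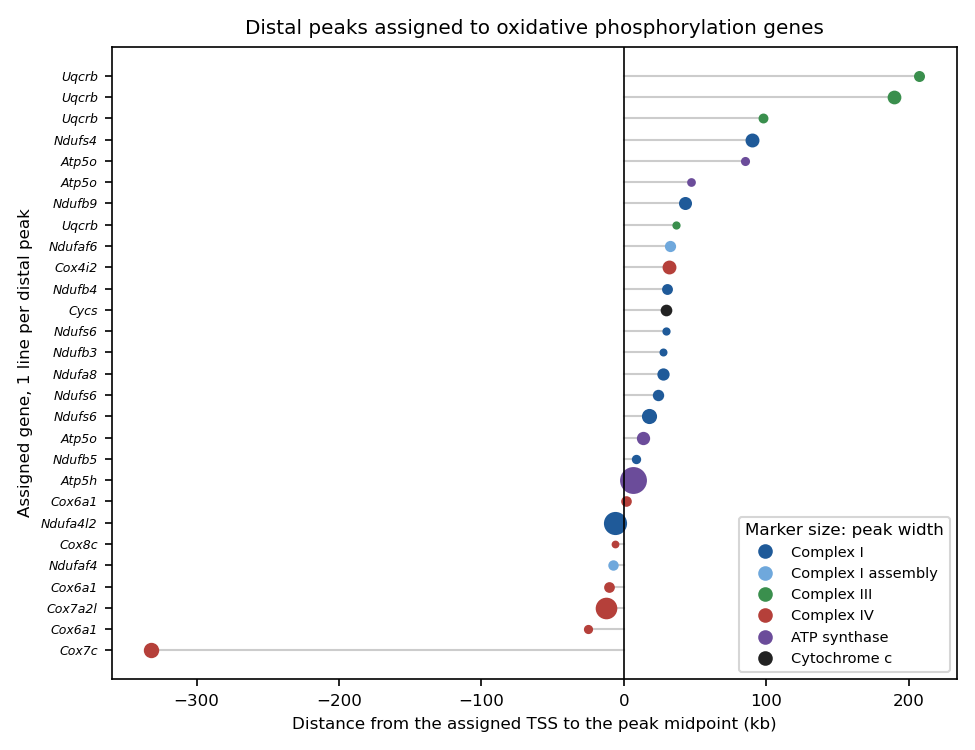
Signed distance in kb from the assigned TSS to the midpoint of each of the 28 distal peaks, 1 line per peak, with negative values upstream. Colours mark complexes and marker diameter follows peak width. Of the 28, 21 lie downstream, and Uqcrb (4 peaks), Ndufs6 (3) and Atp5o (3) hold 10 of these. Direction was not counted for all distal intervals.

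Promoter sequence was searched for the letters of factors known to act on these genes, from 250 bp before to 50 bp after the 5′-most TSS and on both strands. NRF1, nuclear respiratory factor 1, binds a palindrome of GC-rich letters, and GCGCATGCG was present in 10 of 95 promoters (10.5%, 5.82 to 18.3%), compared with 2.13% of all promoters and 4.06% of all CpG-rich ones. The looser form CGCANGCG, which contains part of the first and overlaps it, was present in 29 (30.5%, 22.2 to 40.4%), compared with 10.5 and 20.4%. Both comparison shares lie below the interval for each form.

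The strict letters were in Cox6a1, Uqcrc1, Uqcr11, Atp5k, Atp5l, Atp5g2, Ndufa11, Ndufaf4, Ndufaf5 and Cycs. A peak covered 8 of these 10 promoters, the exceptions being Atp5g2 and Cycs. The sites of 4 open promoters and of both others are shown, with the motif in capitals, to set the letters of Cycs and Atp5g2, which had no peak, beside those of genes with one. They are given on the strand of the gene, from chr5:115799111-115799138 (Cox6a1, minus), chr9:108838682-108838709 (Uqcrc1, plus), chr5:108863450-108863477 (Atp5k, minus), chr4:24825108-24825135 (Ndufaf4, plus), chr6:50516611-50516638 (Cycs, minus) and chr15:102501502-102501529 (Atp5g2, minus).
Cox6a1: aggaacgggGCGCATGCGCgctctcgct
Uqcrc1: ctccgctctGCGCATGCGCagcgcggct
Atp5k: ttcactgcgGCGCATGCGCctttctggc
Ndufaf4: cagatgtctGCGCATGCGCctgtgcgga
Cycs: atgctagctCGCATGCGCgcgcacaaac
Atp5g2: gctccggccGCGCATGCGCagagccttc

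The first base of the motif lay at −139 in Cox6a1, −113 in Ndufaf4, −92 in Cycs, −42 in Atp5g2 and −1 in Atp5k, counted from the TSS, and was base 31 of the transcript in Uqcrc1. All but that of Cycs read as the complete palindrome of 10 bases.

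YY1, a zinc finger factor, was searched as ANATGGCGG. It was present in 10 of 95 promoters (10.5%, 5.82 to 18.3%), compared with 2.33% of all and 4.27% of CpG-rich promoters. Without the genes that encode no subunit it was present in 7 of 85 (8.24%, 4.05 to 16.0%), an interval that contains the share of CpG-rich promoters. In 7 of the 10 the letters began 18 to 40 bases into the transcript, on the sense strand, and in 6 of these (Ndufa2, Ndufa9, Ndufs4, Cyc1 and Atp5sl among them) the ATG within them was the annotated start codon. The promoters of 8 of the 10 genes were open, and those of Ndufa1 and Ndufa9 were not. The sites are shown for 4 of the 6 and for Ndufaf8, because the letters lie early in the transcript, between bases 18 and 40, in genes from different complexes. They are from chr13:115178248-115178275 (Ndufs4, minus), chr6:126799114-126799141 (Ndufa9, minus), chr11:119960250-119960277 (Ndufaf8, plus), chr15:76173983-76174010 (Cyc1, plus) and chr7:26404451-26404478 (Atp5sl, plus).
Ndufs4: cctacaggaAGATGGCGGcggtctcaat
Ndufa9: tgtgggagaAGATGGCGGccgccgtccg
Ndufaf8: cagggcccaAGATGGCGGcgccctcgag
Cyc1: agggggccgACATGGCGGcggcggcggc
Atp5sl: tacctggcaAGATGGCGGcgcccagagc

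The other motifs are given with the same comparisons. The ETS letters CCGGAAGT were in 6 of 95 (6.32%, 2.93 to 13.1%), compared with 4.83% of all and 8.65% of CpG-rich promoters, and the NFY letters CCAATCA were in 9 (9.47%), compared with 8.52 and 10.7%. The SP letters GGGGCGGGG were in 14 (14.7%, 8.99 to 23.2%), close to the 15.0% of all promoters and below the 26.7% of CpG-rich ones. TATAAA and the E-box CACGTG were in 9 promoters each (9.47%, 5.06 to 17.0%), compared with 13.4 and 5.63% for TATAAA and 7.78 and 11.1% for the E-box, and these 4 shares lie inside the interval. The ERR letters TCAAGGTCA, bound by oestrogen-related receptors, were in 2 promoters, Atp5g3 and Sdhd (2.11%, 0.579 to 7.35%), compared with 0.344% of all and 0.211% of CpG-rich promoters. Both lie below the interval, which rests on 2 genes. A match is a description of the letters and does not show that a factor was bound.

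**Figure D5:**
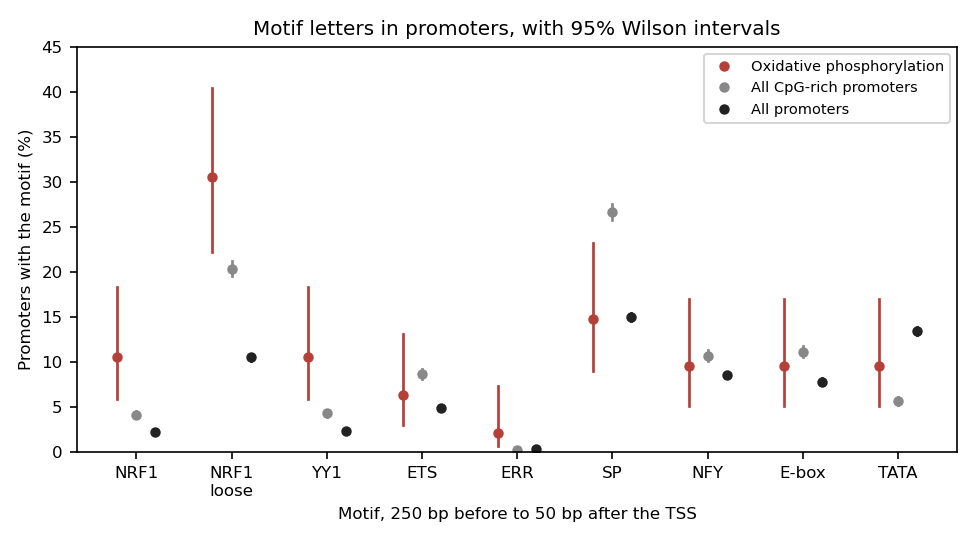
Share of promoters (%) holding each motif from 250 bp before to 50 bp after the TSS, for 95 oxidative phosphorylation genes (red), 9966 CpG-rich promoters (grey) and 22359 promoters (black), with 95% Wilson intervals. NRF1 and YY1 letters stand at 10.5% in the oxidative phosphorylation genes, above both other groups, although for YY1 the interval of subunit genes alone contains the CpG-rich share, and SP letters stand below the CpG-rich group.

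The genes that regulate or assemble the chain also mostly had peaks. Of 18 regulators of mitochondrial genes, 17 had a TSS peak, compared with 50.1% of all protein coding genes. An open promoter was present at 15 (83.3%, 60.8 to 94.2%). The 3 without one, Ppargc1a, Esrrb and Esrrg, had their TSS peak at another start than the most upstream one. Among the 17 were Nrf1 (1266 bp), Gabpa (2082 bp), Gabpb1 (1657 bp), Yy1 (2953 bp), Esrra (2843 bp) and the coactivators Ppargc1a (652 bp) and Ppargc1b (2727 bp). Tfam, whose product packages mitochondrial DNA and acts in its transcription, had a TSS peak of 1049 bp. The helicase gene Twnk had none of its own, and its promoter lay under the peak of Mrpl43. Of 40 assembly factors named outside the rule, 29 had a TSS peak (72.5%, 57.2 to 83.9%), and 35 of 38 had an open promoter (92.1%, 79.2 to 97.3%). The 3 without one were the complex IV factors Cox14, Sco2 and Surf1. Cox10, Cox11, Cox15, Sco1, Coa5, Sdhaf2, Ttc19 and Atpaf2 were open through a peak assigned to a neighbour. By the same measure 53.5% of all promoters and 89.4% of CpG-rich promoters were open. The promoter intervals of the regulators and of the assembly factors both contain the CpG-rich share. The CpG content of these lists was not counted.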

How the data were processed

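ATAC-Seq was performed on 2 replicates of day 5 CPCs, which were grouped by the labels. The authors deposited 1 list with 6 columns and no header, whose values are peak start and end on mm9, the distance of the midpoint from a TSS (signed, in bp), and the accession and symbol of the assigned gene. These values carry no score and no normalization. According to the methods, the authors mapped reads with bowtie2, removed improperly paired, secondary and duplicate reads with SAMtools and Picard, called peaks per replicate with MACS, and kept those sharing 1 bp or more with the second replicate. The submitters' processing notes name Picard 1.136 and bedtools 2.15. A shift of reads to the Tn5 cut position is not given in the sources used here beyond the shift at peak calling. An interval has the coordinates of 1 replicate, so width depends on caller and depth, and depth is unknown. The list may lack some original lines, and a region missing from it was not shown to be closed.

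The 26429 lines were reduced to 26232 distinct intervals, of which 26218 were matched to RefSeq gene names (GRCm38.p6 table, names only) by accession, symbol or older symbol. Start sites, strands and sequence came from GENCODE vM1 and NCBIM37, which is the same build, and 95 of the 98 member genes were found there. Shares have 95% Wilson intervals. With 1 group and 1 list there was no comparison between conditions, no test and no replicate error. Calculations used Python and numpy 2.4.6 after checks on simulated data. The members, gene lists and motifs were chosen with earlier results of these data known. Named genes were the widest and narrowest TSS peak of each complex, genes with 2 or more peaks or without an assigned or TSS peak, isoform pairs, Cyc1, Cycs, the Sdh genes and genes whose promoter peak carries another symbol. The other genes named, among them the remaining core subunits, the distal neighbours and the regulators, were chosen after their values were seen. Alternatives covered duplicate lines, width minimums, merging, distance and promoter limits, subunits only, motif windows and start sites. The values of 1 member gene and of 1 neighbouring gene are not reported here, although both enter the counts.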

Additional observations from a re-analysis of the deposited data

How the results depend on the processing

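Of 39 recalculated shares, medians and counts, 34 stayed inside the 95% interval of the reported value (for medians, of the median), 5 moved outside it and none reversed. The tally covers values of the members alone, so a difference from all genes could not reverse in it. With intervals wider than the median of the whole list, the share of genes with an assigned peak fell to 58.2%, that with a TSS peak to 51.0% and that of open promoters to 62.1%, and distal peaks were 13.8% of member peaks. The filter removes narrow peaks by construction. With a limit of 250 bp in place of 1000 bp, 59.2% of genes had a TSS peak. The shares of all protein coding genes were not recalculated under these limits, so whether the difference from all genes holds there was not tested. Counting every line, merging intervals or keeping intervals of at least 500 bp changed no value. The narrowest member peak was 547 bp, so that minimum removed no member. All of these recalculations are among the 34. Of 27 recalculated motif shares 4 moved, all upward in the window of 500 bp on either side (CGCANGCG 41.1%, ANATGGCGG 24.2%, TCAAGGTCA 9.47% and TATAAA 24.2%). That window contains the shorter one, so shares there can only stay or rise. The shares of CpG-rich promoters there were 34.6, 9.38, 1.23 and 17.0%, of which the first and the last lie inside the intervals of the oxidative phosphorylation genes (31.7 to 51.1% and 16.7 to 33.7%). Chosen after seeing the data, a search from the TSS behind the deposited distance (64 genes) gave 10.9% each for the NRF1 and YY1 letters, and opposed starts that may also pass each other by 500 bp gave 30.5% of genes with a shared promoter, compared with 9.55% of all promoters.

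No paired analysis was possible because both replicates share 1 list of 1 group, and neither replicate was left out for the same reason. Depth limits what absence from the list shows.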
